A study of Homo sapiens with 2 samples.

Results

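The stop codon windows of mRNAs were the last 50 nt of coding sequence and the first 50 nt of 3'UTR around each annotated stop codon, counted along the spliced transcript. They were taken from the Ensembl canonical transcript of every protein-coding gene in GENCODE v44lift37, on GRCh37. Of 19881 such transcripts, 19589 carried an annotated start and stop codon and gave a window, and these windows hold 500280 cytosines on the reference. A cytosine counted as a member when its unconverted and converted reads summed to at least 10, when it lay on the strand of the gene and when it was more than 50 nt from the start codon. This gave 64448 members in 3776 windows of MCF10A, out of 3146911 sites listed for the library, and 60825 members in 3399 windows of MDA-MB-468, out of 3489803. A window was covered in at least 1 line for 4710 genes and in both lines for 2465.

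RNA bisulfite sequencing (BS-Seq) was available for MCF10A, a non-malignant human mammary epithelial cell line, and MDA-MB-468, a human breast cancer cell line, with 1 library each and no replicates. In each case total RNA from cultured cells was poly(A)-selected and treated with sodium bisulfite at 60 degrees for 8 hours. The lines differ in far more than malignancy, and a difference between the libraries cannot be told apart from a difference between the lines. Among marker genes, the epithelial keratins KRT5, KRT8 and KRT18 were read in both libraries, the leukocyte gene PTPRC in neither and CD74 in MDA-MB-468 alone with 631 counts, and KRT14 at 222 counts was read in MCF10A alone. Although the authors describe MCF10A as epithelial, its library had 33 summed counts of CDH1 and 5 of EPCAM, where MDA-MB-468 had 3447 and 6112, and the mesenchymal gene VIM had 339845 against 68.

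Bisulfite turns unmodified cytosine into uracil, and 5-methylcytosine (m5C) stays cytosine, so the share of reads that still show C is the methylation ratio of a site. Cytosines held in stable RNA helices are also poorly converted, and hydroxymethylcytosine is not separated from m5C. On mRNA, m5C is written by NSUN2 and by NSUN6, and ALYREF is a reader that takes part in mRNA export. At the stop codon the ribosome halts and release factors free the protein, and the sequence on either side is covered by the terminating ribosome. The stop codons TAA, TAG and TGA contain no cytosine, so the signal of a window comes from its flanks.

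The stretches that carry the results are shown as the GRCh37 reference has them, 5′ to 3′ on the transcript strand. Capitals mark the cytosine described and, where it lies wholly inside the stretch, the stop codon. EHBP1L1, CEBPB, ECH1 and PNPLA6 hold runs of called cytosines in both lines, MPST holds the pair that ends such a run, and CLDN3 has a run outside predicted pairing.

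EHBP1L1, chr11:65359765-65359793, plus strand: ctgagcTGAggccgCcggcccgggtggcc

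CEBPB, chr20:48808600-48808628, plus strand: cactgcTAGcgcggCccccgcgcgcgtcc

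ECH1, chr19:39306206-39306234, minus strand: ccccagccagggggCcggccttgtcccgc

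MPST, chr22:37425524-37425552, plus strand: tcatctcagagggcCgggggaagacccac

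PNPLA6, chr19:7626456-7626484, plus strand: gacaggggtcacccCctccctcccacccc

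CLDN3, chr7:73183669-73183697, minus strand: cccaccaccaccacCaccaccaacaccac

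The next 5 stretches each have a single called cytosine that stands apart from other called sites. In COTL1, NDUFB7 and NSUN2 that cytosine is followed by any base and then GGG, the sequence described for NSUN2 targets.

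COTL1, chr16:84600471-84600499, minus strand: cgagctgaagaaggCggggggagccaatt

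NDUFB7, chr19:14676961-14676989, minus strand: aaaggccagggaccCggggaagtggaccc

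KXD1, chr19:18679417-18679445, plus strand: tgacgaggagatgaCgggcgaaTAGccct

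NSUN2, chr5:6600009-6600037, minus strand: caggcccaaggcagCgggggcccacaccc

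RPL35, chr9:127620178-127620206, minus strand: caaggccTGAggggCgcattgtcaataaa

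The last 2 come from windows in which the libraries differed.

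S100A9, chr1:153333296-153333324, plus strand: cggggagggcacccCcTAAgaccacagtg

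IER3, chr6:30711657-30711685, minus strand: aatccgaaaaaccaCaaagaaacaccagg

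Most cytosines near stop codons were fully converted. In MCF10A 39405 of the 64448 members (61.1%) had no unconverted read, and in MDA-MB-468 40660 of 60825 (66.8%) had none. Summed over the windows, 1.95% of 2532294 counts in MCF10A were unconverted (95% Wilson interval 1.94% to 1.97%), and 1.52% of 2632090 in MDA-MB-468 (1.51% to 1.54%). Each site was then set against the nonconversion rate of its library by a one-sided Fisher's exact test, adjusted by the Benjamini-Hochberg method over all kept exonic and mitochondrial sites, and called m5C below 0.05. By this test 538 window sites were called in MCF10A, 0.835% of the members (0.767% to 0.908%), where 0.960% of all sites tested were called. In MDA-MB-468 369 were called, 0.607% (0.548% to 0.672%), against 0.840% of all sites tested. Among nuclear sites alone the shares called were 0.851% and 0.742%, so the windows held about the background share of calls in MCF10A and less than it in MDA-MB-468. These intervals cover counting error only, treat neighboring cytosines of the same reads as independent, and rest on PCR reads without molecular identifiers.

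The call had little reach at low depth. A member had a median coverage of 19 reads in MCF10A, and of 21 reads for MDA-MB-468. At a coverage of 10 at least 4 unconverted reads were needed in each line, and at a coverage of 100 at least 9 in MCF10A and 10 in MDA-MB-468. Called ratios of MCF10A ran from 4.16% to 100% with a median of 33.0%, and those of MDA-MB-468 from 3.06% to 90.5% with a median of 28.6%. Beside the coverage minimum, nonconversion was 3.12% at sites with a coverage of exactly 10 and 3.09% at those with 9 in MCF10A, and 1.86% and 2.23% in MDA-MB-468.

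The 3'UTR side of the stop codon held more calls than the coding side. In MCF10A 341 of 31568 downstream sites were called, 1.08% (0.972% to 1.20%), and 197 of 32880 upstream sites, 0.599% (0.521% to 0.689%). In MDA-MB-468 the shares were 0.861% (0.763% to 0.973%) and 0.363% (0.302% to 0.437%). The intervals of the sides did not overlap in either line, and no test was run across sites, which are not replicates. Farther from the stop codon the same order held, with 0.810% of 3'UTR sites against 0.579% of coding sites in MCF10A and 0.728% against 0.535% in MDA-MB-468. Counted by windows instead of sites the sides were closer. In MCF10A 83 of 2894 windows covered downstream had a call there, 2.87% (2.32% to 3.54%), against 76 of 3276 upstream, 2.32% (1.86% to 2.89%). In MDA-MB-468 the values were 2.41% (1.88% to 3.07%) and 1.70% (1.29% to 2.23%), and in both lines these intervals overlapped.

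Along the transcript the share called was lowest just before the stop codon in MDA-MB-468 and highest shortly after it in both lines. In the bin of 11 to 20 nt past the stop codon 107 of 6775 sites were called in MCF10A, 1.58% (1.31% to 1.90%), from 38 genes, and 70 of 6240 in MDA-MB-468, 1.12% (0.889% to 1.41%), from 29 genes. The 10 nt that end the coding sequence had 41 calls at 6560 sites in MCF10A, 0.625% (0.461% to 0.847%), and 9 calls at 6126 sites in MDA-MB-468, 0.147% (0.0773% to 0.279%). By 41 to 50 nt into the 3'UTR the share in MCF10A had come down to 0.347% (0.225% to 0.536%), while in MDA-MB-468 it stood at 0.670% (0.484% to 0.925%).

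**Figure D1:**
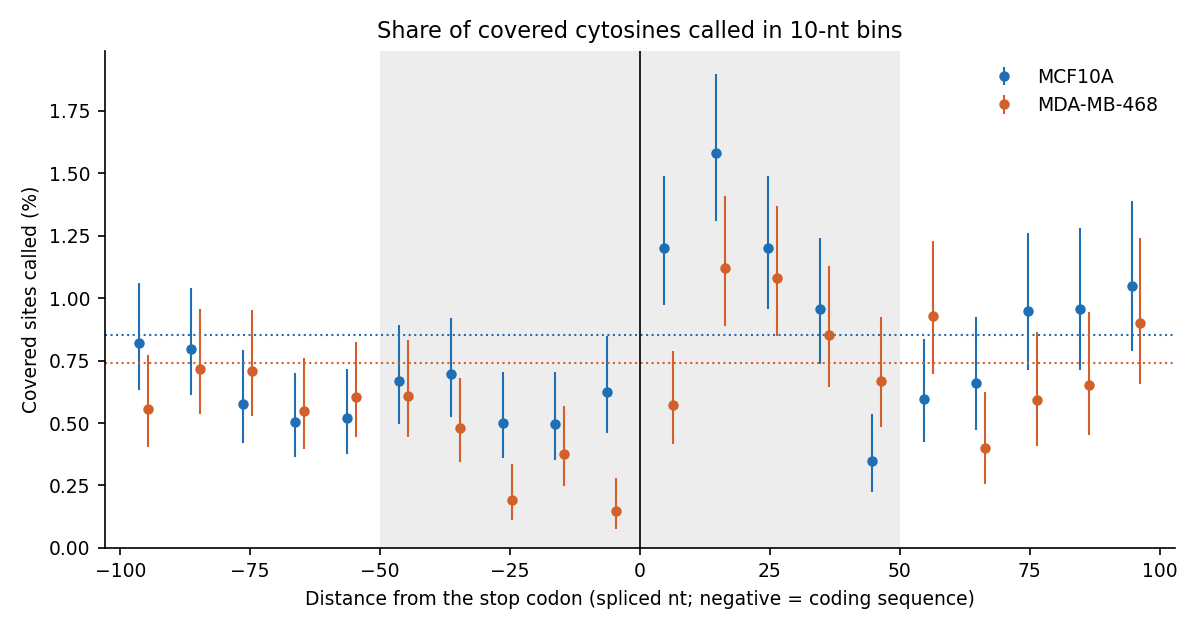
Share of covered cytosines called m5C (in percent, vertical axis) in bins of 10 spliced nt around the stop codon (horizontal axis, negative distances in the coding sequence), with 95% Wilson intervals, for the MCF10A and MDA-MB-468 libraries. The gray area is the window of 50 nt on each side and the dotted lines are the shares over all kept nuclear sites, 0.851% and 0.742%. The highest share in each line, 1.58% and 1.12%, lies 11 to 20 nt past the stop codon.

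Called cytosines lay in predicted helices more often than the rest. The pairing probability, computed by folding 300 nt windows of each transcript at 70 degrees, had a median of 0.777 at called and 0.539 at other members in MCF10A, and of 0.842 and 0.555 in MDA-MB-468. Above a probability of 0.9, 4.99% of downstream sites were called in MCF10A (4.19% to 5.92%) and 1.66% of upstream sites (1.22% to 2.26%). In MDA-MB-468 these shares were 3.53% (2.87% to 4.32%) and 1.86% (1.41% to 2.46%). At probabilities up to 0.5 the intervals of the sides overlapped in MCF10A, 0.541% (0.433% to 0.675%) downstream and 0.509% (0.407% to 0.636%) upstream. In MDA-MB-468 they did not, with 0.562% (0.446% to 0.707%) against 0.125% (0.0780% to 0.20%). With sites above 0.5 left out, the upstream share minus the downstream share went from -0.481 to -0.0319 percentage points in MCF10A. The part of incomplete conversion of helices in the calls was not tested beyond these values.

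**Figure D2:**
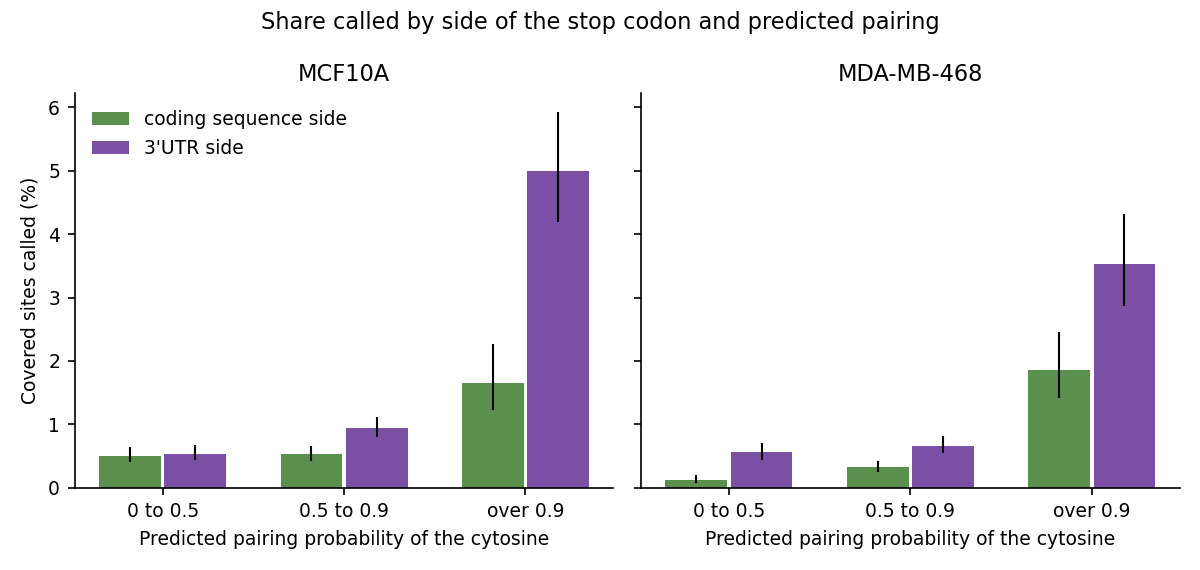
Share of covered window sites called m5C (in percent, vertical axis) by the predicted pairing probability of the cytosine (horizontal axis), with the coding side and the 3'UTR side of the stop codon as separate bars and 95% Wilson intervals, MCF10A on the left and MDA-MB-468 on the right. The bars are highest above a probability of 0.9, at 4.99% and 3.53% on the 3'UTR side.

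The share of called sites was highest in the most GC-rich windows and did not follow GC content evenly. In windows with a GC content above 64.1%, 1.20% of sites were called in MCF10A (1.06% to 1.36%) and 1.01% in MDA-MB-468 (0.887% to 1.14%). Between 50.5% and 58.3% GC the shares were 0.580% (0.473% to 0.712%) and 0.151% (0.0976% to 0.233%). Windows below 50.5% GC had more again, 0.691% (0.544% to 0.878%) and 0.676% (0.493% to 0.927%), the first of these overlapping the class above it. Counted by windows, 2.47% of those below 50.5% GC had a call in MCF10A, against 2.53% between 50.5% and 58.3%. In MDA-MB-468 these shares were 1.64% and 1.18%, and in both lines the intervals overlapped. Above 64.1% GC the shares of windows with a call were 6.76% and 5.92%. Of the 16 trinucleotides centered on the site, CCG had the highest share in both lines, 1.78% (1.37% to 2.32%) and 1.32% (0.972% to 1.78%), followed by CCC with 1.39% and 1.08%. Of the other contexts with a neighboring C, GCC was above the share over all members, with 1.38% and 0.870%. CCA had 0.984% and 0.613%, with intervals that include that share. TCC, CCT and ACC were below it, CCT with 0.602% and 0.378% and ACC with 0.530% and 0.476%. The lowest shares were 0.199% for TCA in MCF10A and 0.165% for TCG in MDA-MB-468. By position within the codon the shares were 0.645%, 0.590% and 0.573% at codon positions 1, 2 and 3 in MCF10A and 0.353%, 0.456% and 0.310% in MDA-MB-468, all with overlapping intervals.

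TAA windows had the highest site shares in both lines, while the shares of windows with a call had overlapping intervals. TAA windows had 1.38% of their sites called in MCF10A (1.17% to 1.62%), TGA windows 0.793% (0.708% to 0.888%) and TAG windows 0.585% (0.480% to 0.713%). Of the 145 TAA calls in MCF10A, however, 73 came from the windows of S100A9 and IER3, and without these TAA windows had 0.689% (0.547% to 0.867%), which overlapped TGA. In MDA-MB-468 TAA windows had 0.949% (0.764% to 1.18%), against 0.578% for TGA (0.506% to 0.660%) and 0.482% for TAG (0.383% to 0.607%). Without the same genes the TAA share was 0.898% (0.718% to 1.12%), but S100A9 held 5 of its 81 calls and IER3 0. The TAA windows of CLDN3, EIF3I and COTL1 held 16, 8 and 7 calls in that line, and the share without them was not computed. The share of covered windows with any call was 3.71%, 3.67% and 4.01% for TAA, TAG and TGA in MCF10A and 3.08%, 3.13% and 3.18% in MDA-MB-468. Of windows ahead of a 3'UTR over 1000 nt long, 2.55% had a call in MCF10A (1.93% to 3.38%), 4.91% of those ahead of one over 200 and up to 1000 nt (3.94% to 6.10%), and 6.23% ahead of shorter ones (4.19% to 9.18%). In MDA-MB-468 the shares were 2.31%, 3.87% and 2.97%, with overlapping intervals.

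Calls were packed into few windows. At least 1 site was called in 146 of the 3776 covered windows of MCF10A, 3.87% (3.30% to 4.53%), and in 107 of 3399 in MDA-MB-468, 3.15% (2.61% to 3.79%). The 49 windows with 5 or more called sites in MCF10A held 405 of the 538 calls (75.3%), and 36 such windows in MDA-MB-468 held 262 of 369 (71.0%). Another called site lay within 10 nt of 454 MCF10A calls (84.4%) and of 314 MDA-MB-468 calls (85.1%). Only 13 windows in MCF10A and 5 in MDA-MB-468 had calls on both sides of the stop codon.

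Several windows covered in both lines had runs of unconverted cytosines with sharp ends. EHBP1L1 encodes an adaptor of membrane traffic, and the 7 covered cytosines from 3 to 12 nt past its TGA codon, the run shown above, were called in both lines. At the cytosine 6 nt past the stop codon, chr11:65359779, 16 of 19 reads were unconverted in MCF10A, 84.2%, against 46 of 55 reads for MDA-MB-468, 83.6%. The ratios of the run went from 73.7% to 90.0% in MCF10A and from 74.6% to 83.6% in MDA-MB-468. In MDA-MB-468 no other cytosine of the window exceeded 10%, whereas MCF10A had 3 further calls in the coding sequence, 21 to 25 nt before the stop codon, at 16.7% to 18.8%.

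CEBPB encodes a bZIP transcription factor. From 1 to 12 nt past the TAG codon 8 cytosines were called in both lines, at coverages of 248 to 272 in MCF10A and 199 to 218 in MDA-MB-468. At chr20:48808614, 6 nt past the stop codon, 109 of 255 reads were unconverted in MCF10A, 42.7%, against 86 of 203 reads for MDA-MB-468, 42.4%. The other 38 covered cytosines of the window stayed at or below 4.95% in MCF10A and 4.62% in MDA-MB-468.

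ECH1 encodes an enzyme of fatty acid oxidation, and its run was split into 4 cytosines 19 to 22 nt and a pair 33 to 34 nt past the TGA codon. At chr19:39306220, 33 nt past the stop codon, 33 of 54 reads were unconverted in MCF10A, 61.1%, against 55 of 79 reads for MDA-MB-468, 69.6%. The first 4 were lower, 50% to 54.3% in MCF10A and 45.9% to 50% in MDA-MB-468, and all other covered cytosines were at or below 6.67% and 4.35%.

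In MPST the run lay on the coding side of the canonical transcript, although not every transcript of the gene puts its last pair there. MPST encodes 3-mercaptopyruvate sulfurtransferase, which produces hydrogen sulfide, and 8 cytosines from 44 to 15 nt before its TGA codon were called in both lines. At chr22:37425538, 15 nt before the stop codon, 36 of 57 reads were unconverted in MCF10A, 63.2%, against 36 of 55 reads for MDA-MB-468, 65.5%. The cytosines at -44 to -42 were lower, 25.7% to 33.3% in MCF10A and 19.4% to 32.3% in MDA-MB-468. Its called sites had a median predicted pairing probability of 0.960. PNPLA6, a phospholipase gene, had 6 called cytosines at 17 to 23 nt past the stop codon in both lines, with a median ratio of 88.2% in MCF10A, of 63.7% for MDA-MB-468, and a median pairing probability of 0.95.

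**Figure D3:**
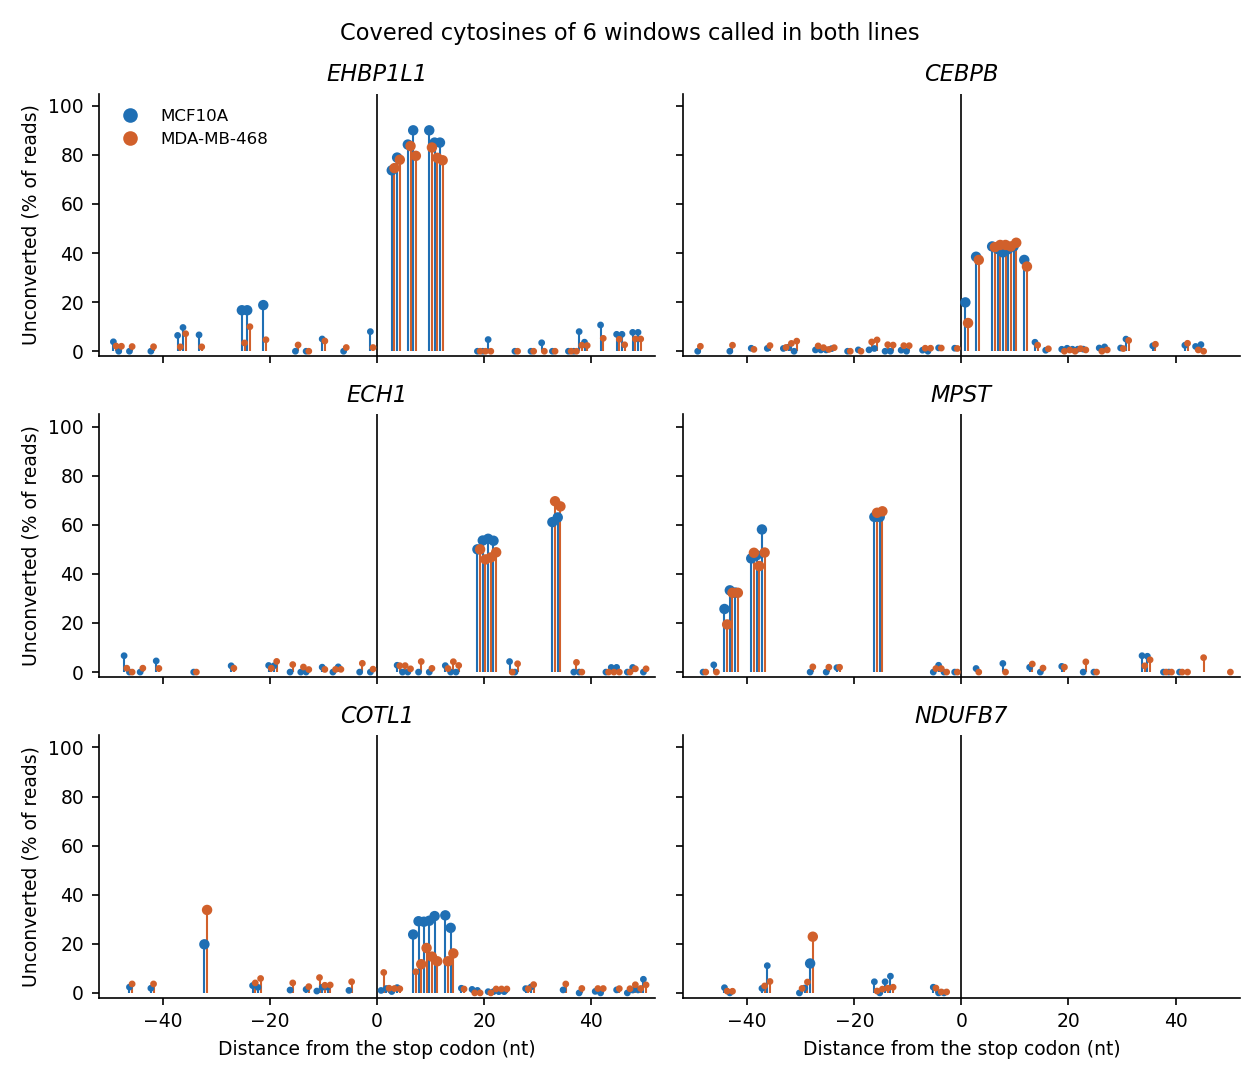
Methylation ratio (percent of reads unconverted, vertical axis) of every covered cytosine against its distance from the stop codon in nt (horizontal axis) in 6 windows with calls in both lines, larger points being called sites. MCF10A and MDA-MB-468 follow each other in the runs of EHBP1L1, CEBPB, ECH1 and MPST, and no site of COTL1 or NDUFB7 passed the test between the libraries.

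Further windows showed runs of this kind. TYK2, a Janus kinase gene, had 11 called cytosines from 11 to 48 nt past the stop codon in each line, at 26.0% to 45.5% in MCF10A and 21.7% to 38.5% in MDA-MB-468. AGTRAP had 10 in each line between 17 and 30 nt, at 12.2% to 18.0% and 19.2% to 29.6%. Not every transcript of AGTRAP puts its cytosines at 19 and 27 nt on the 3'UTR side. ACAP3, an Arf GTPase-activating protein gene, had 9 in MCF10A at 56.2% to 85.7% and 10 in MDA-MB-468 at 20.8% to 66.7%. The linker histone gene H1-10 was called at 4 and 5 sites, up to 44% and 46.8%. A run of 6 cytosines 6 to 20 nt past the stop codon of ITGA3, an integrin subunit gene, had ratios of 38.7% to 41.9% in MCF10A at coverages of 69 to 136. In MDA-MB-468 its strongest cytosine had 3 unconverted of 12 reads and was not called.

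Other runs were called mainly in a single line. TRIM8 had 10 called cytosines at 31.6% to 62.2% and PROCR, the gene of the endothelial protein C receptor, 7 at 17.4% to 59.5% in MCF10A, and neither window was covered in MDA-MB-468. CTDNEP1, a protein phosphatase gene, had 12 called of 29 in MCF10A at 23.5% to 80%, and 1 of 21 in MDA-MB-468. CLDN3, a tight junction gene whose window was covered in MDA-MB-468 alone, had the most called sites of any window there, 16, at 24 to 49 nt past the stop codon. Their ratios went from 14.7% to 38.9% and their median pairing probability was 0.0595, and the sequence shown for CLDN3 is a run of CCA repeats. EPHX1, which encodes microsomal epoxide hydrolase, had 10 called sites in MDA-MB-468 at 17.9% to 30%, and none of its 43 covered sites was called in MCF10A, where the highest ratio was 6.06%. None of the called CTDNEP1 and EPHX1 sites covered in both lines passed the test between the libraries described below, on 10 to 21 reads in the shallower line.

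A smaller set of calls stood alone. In MCF10A 84 called sites had no other call within 10 nt, 52 of them upstream and 32 downstream of the stop codon, and in MDA-MB-468 there were 55, 30 upstream and 25 downstream. Of these, 14 and 18 were followed by any base and GGG. Over all members that sequence, CNGGG read from the site on the transcript strand, was present at 1984 of 64448 sites in MCF10A. Of the 1984, 39 were called, 1.97% (1.44% to 2.68%). In MDA-MB-468 it was present at 2046 of 60825 sites, of which 47 were called, 2.30% (1.73% to 3.04%). On the reference 2.27% of window cytosines start CNGGG and 37.3% of the annotated windows hold it somewhere. The sequence CTCCA, described for NSUN6 targets and starting 0.761% of window cytosines in 17.0% of windows, was called at 8 of 488 sites in MCF10A, 1.64% (0.833% to 3.20%), and at 1 of 443 in MDA-MB-468, 0.226% (0.0399% to 1.27%), in SAT1.

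There were 10 isolated sites called in both lines at a coverage of at least 20. NEU1, the lysosomal sialidase gene, was highest in MCF10A and below COTL1 and KXD1 in MDA-MB-468, with 8 of 25 reads unconverted in MCF10A, 32.0%, against 11 of 36 reads for MDA-MB-468, 30.6%, at chr6:31827517, 19 nt before the stop codon. COTL1 encodes an actin-binding protein, and its cytosine 32 nt before the stop codon had 40 of 202 reads unconverted in MCF10A, 19.8%, against 24 of 71 reads for MDA-MB-468, 33.8%. The window of COTL1 also had a run past the stop codon that went the other way, with 7 called cytosines at up to 31.6% in MCF10A and 6 at up to 18.3% in MDA-MB-468. None of the COTL1 sites passed the test between the libraries.

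The isolated cytosine of NDUFB7, a complex I subunit gene, lay 28 nt before its TAG codon at a predicted pairing probability of 0.315. It had 6 of 50 reads unconverted in MCF10A, 12%, against 62 of 271 reads for MDA-MB-468, 22.9%. In MCF10A an uncalled cytosine within 10 nt of it had a ratio nearly as high, 11.1%. KXD1 had 5 of 33, 15.2%, and 25 of 78, 32.1%, at a cytosine 8 nt before the stop codon with a probability of 0.382. In MCF10A the calls of NDUFB7 and KXD1 were just under the threshold (adjusted p = 0.0493 each, Fisher's exact test with Benjamini-Hochberg adjustment). HIGD2A, which takes part in cytochrome c oxidase assembly, had 19.1% and 23.5% at 47 nt past the stop codon with a probability of 0.152. The letters CNGGG start at the site in NDUFB7, HIGD2A, COTL1 and LENG8, the last with 31.4% and 24.1%, and not at that of KXD1 or NEU1. FTL, TKT, RPL35 and RPL4 made up the rest, with ratios between 4.16% and 22.7% and no such letters, and the stretch of FTL has 2 other exact copies in GRCh37.

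The window of NSUN2, the gene of an mRNA m5C writer, held a site of the same kind. At chr5:6600023, 16 nt past the stop codon, 15 of 35 reads were unconverted in MDA-MB-468, 42.9% (adjusted p = 1.03e-14, Fisher's exact test with Benjamini-Hochberg adjustment), and the next highest ratio in the window was 6.67%. In MCF10A the site had 1 unconverted of 11 reads, 9.09%, and was not called, and the site did not pass the test between the libraries described below. It was the only called site among the RNA cytosine methyltransferase and reader genes, of which 3 windows were covered in MCF10A and 4 in MDA-MB-468.

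Fixed gene groups were read beside all covered windows, of which 3.87% in MCF10A and 3.15% in MDA-MB-468 had a call, and beside all members, of which 0.835% and 0.607% were called. Of the cytosolic ribosomal protein genes 37 windows were covered in MCF10A and 7 had a call, 1 site each, and in MDA-MB-468 2 of 30 did. By sites, 1.41% were called in MCF10A (0.687% to 2.89%) and 0.526% in MDA-MB-468 (0.144% to 1.90%), and both intervals include the share over all members. RPL35 and RPL4 were called in both lines at low ratios and high depth. RPL35 had 22 of 384 reads unconverted in MCF10A, 5.73%, against 25 of 396 reads for MDA-MB-468, 6.31%, at 5 nt past the stop codon. The median coverages of its window were far higher, 1887.0 and 2748.0. In MCF10A its uncalled site 30 nt past the stop codon had a higher ratio, 8.57%. In MDA-MB-468 an uncalled site within 10 nt of the called one had 5.63%. RPL4 had 74 of 1779, 4.16%, and 30 of 518, 5.79%, at 30 nt before the stop codon. RPS9, RPL23, RPL26 and RPL27A were called in MCF10A at 6.07% to 31.2%, and in MDA-MB-468 the site was not called in RPS9 and RPL27A and not covered in the others. Not every transcript of RPS9 and RPL23 puts the called site on the coding side. The highest of the list, RPLP1 with 14 of 21 reads, 66.7%, had a coverage of 21 in a window with a median coverage of 437.0, and its stretch has 1 other exact copy in GRCh37, as those of RPS9 and RPL27A do.

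Replication-dependent histone genes, whose mRNAs mostly lack poly(A) tails, had no call at 43 MCF10A sites and 116 MDA-MB-468 sites, which allows shares of up to 6.98% and 2.59%. Translation termination and nonsense-mediated decay genes had none at 137 and 112 sites, which allows up to 2.19% and 2.68%. All 4 limits lie above the shares over all members, so these groups cannot be told apart from the background at this depth. Selenoprotein genes had 2 called sites of 257 in MCF10A, both in SELENOM at 26.9% and 28.0%, and none of 210 in MDA-MB-468, which allows up to 1.43%.

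The deepest windows were largely converted. S100A6, a calcium-binding protein gene, had 88200 counts in MCF10A, of which 1.05% were unconverted, and none of its 25 cytosines exceeded 1.95%. In MDA-MB-468 it had 14148 counts with 0.968% unconverted. EEF2, the elongation factor gene, had 0.931% of 50366 and 0.834% of 10069, TMSB10 0.958% of 43857 and 0.659% of 20640, and the ferritin gene FTH1 1.22% of 34269 and 0.662% of 52105, all with no call. KRT19, covered in MDA-MB-468 alone, had 0.891% of 50381. Among windows with at least 1000 counts, 546 of MCF10A and 606 of MDA-MB-468, the median nonconversion was 1.52% and 1.21%, with highest values of 22.4% and 18.0%.

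The lines were compared at the 40211 window sites covered in both. Of 373 sites called in MCF10A and covered in MDA-MB-468, 144 were also called there (38.6%), and these were 60.8% of the 237 called in MDA-MB-468 and covered in MCF10A. The shared sites lay in 40 windows, 37 upstream and 107 downstream of the stop codon. Their median ratio was 37.5% in MCF10A, against 32.8% for MDA-MB-468, with a median absolute difference of 6.27 percentage points, and 99 of them (68.8%) were within 10 points. Sites called in MCF10A alone, 229 in number, had a median ratio of 4.17% in MDA-MB-468, and the 93 called in MDA-MB-468 alone had 7.14% in MCF10A. Over all 466 sites called in at least 1 line Pearson's r of the ratios was 0.418, a description across sites that share reads and windows. By windows, 45 of 113 called in MCF10A and covered in MDA-MB-468 were called there too (39.8%), or 53.6% of the 84 in the other direction.

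**Figure D4:**
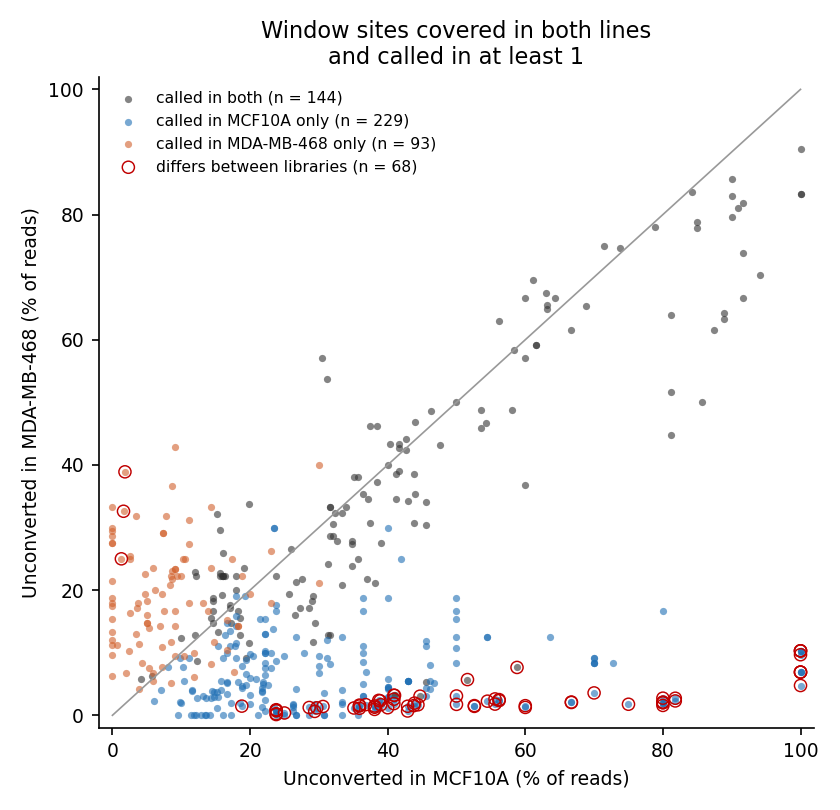
Methylation ratio (percent of reads unconverted) in MCF10A on the horizontal and MDA-MB-468 on the vertical axis at the 466 window sites covered in both lines and called in at least 1. Black points are the 144 sites called in both, and red circles mark 68 of the 71 sites that differed between the libraries, the other 3 being called in neither line. Most circles lie along the bottom, at high ratios in MCF10A and ratios near 0 in MDA-MB-468.

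A two-sided Fisher's exact test of the counts of each site, adjusted by the Benjamini-Hochberg method over all 812729 sites covered in both lines, compared the 2 libraries, not the lines as conditions. It found 68 window sites with a lower ratio in MDA-MB-468, where 0.0691% of all sites tested were lower, and 3 with a higher ratio, where 0.0202% were higher. Before adjustment 465 and 76 window sites were below 0.05. The 68 lower sites came from 8 windows, with 35 in S100A9, 10 in PLAAT4, 8 in CASP14, 7 in IFI27, 5 in SEC61G and 1 each in S100A8, BST2 and IER3. All 68 were deeper in MDA-MB-468 than in MCF10A, with a median coverage of 882.5 against 20.5. Over all sites covered in both, 50.5% were deeper in MDA-MB-468 and the medians were 26.0 and 24.0. Of the 144 sites called in both lines, 5 passed this test, all in S100A9.

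S100A9 encodes a calcium-binding subunit of calprotectin. All 35 covered cytosines of its window, on both sides of the TAA codon, were called in MCF10A, at ratios of 29.7% to 75.0% and coverages of 10 to 41. In MDA-MB-468 the window had 87883 counts with 2.04% unconverted. At the cytosine 2 nt before the stop codon 12 of 20 reads were unconverted in MCF10A, 60.0%, against 22 of 1427 reads for MDA-MB-468, 1.54% (adjusted p = 3.10e-12, Fisher's exact test with Benjamini-Hochberg adjustment). The 5 sites called in MDA-MB-468 had ratios of 3.06% to 7.65%, the highest at 7 nt before the stop codon with 106 of 1385 reads.

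In CASP14, IFI27, PLAAT4 and IER3 nearly all covered cytosines were higher in MCF10A, and in SEC61G those far upstream were. CASP14, a caspase gene of the epidermis, had all 8 covered cytosines at 100% on 10 to 13 reads in MCF10A, and 4.76% to 10.3% in MDA-MB-468. IFI27, an interferon-induced gene, had 7 of 7 called at 80% to 81.8% on 10 or 11 reads. In MDA-MB-468 the same 7 cytosines had 1.58% to 2.74%, and all 32 covered ones together 1.08% of 38345 counts. PLAAT4, a phospholipase and acyltransferase gene, had 12 covered cytosines between 19% and 28.6% on 20 or 21 reads, against 0.661% of 10438 counts over 21 covered cytosines in MDA-MB-468. BST2, another interferon-induced gene, had 9 of 12 called in MCF10A, whereas 0 of 31 were for MDA-MB-468. SEC61G, a subunit gene of the ER translocon, had 5 called cytosines at 50% to 66.7%, all 26 nt or more before the stop codon, and 7.02% or less at the other 4. In IER3, an immediate early response gene, 38 of 41 cytosines were called in MCF10A at 12.3% to 50%, with a median pairing probability of 0.223, and 5.01% of 2414 counts were unconverted in MDA-MB-468. At the cytosine 42 nt past the stop codon, shown above, the values were 12 of 64 reads, 18.8%, and 2 of 136, 1.47%.

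Windows in which at least 80% of covered sites were called numbered 4 among the 49 of MCF10A with 5 or more calls, namely CASP14, IER3, IFI27 and S100A9, with median coverages of 10 to 24.0. All 4 were covered in MDA-MB-468 and 1, S100A9, had a call there. Of the other 45, 33 were covered in MDA-MB-468 and 17 had a call there. In MDA-MB-468 the 2 windows of the first kind were BAMBI and MYL12B, neither covered in MCF10A. Leaving out S100A9 and IER3, a choice made after the data were seen, lowered the share called in MCF10A from 0.835% to 0.722% and the count of lower sites from 68 to 32.

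The 3 higher sites all lay in the 3'UTR of EIF3I, which encodes a subunit of translation initiation factor eIF3. At 30 nt past the stop codon 1 of 55 reads was unconverted in MCF10A, 1.82%, against 14 of 36 reads for MDA-MB-468, 38.9% (adjusted p = 0.00592, Fisher's exact test with Benjamini-Hochberg adjustment). In MDA-MB-468 8 cytosines from 22 to 46 nt were called, at 23.3% to 38.9%, and in MCF10A none was. The stretch around this site is a repeat with very many other exact copies in GRCh37, and whether reads from those copies were placed here was not tested. Of 54 stretches around named sites that were searched in the same way, 7 had another exact copy, and those of S100A9, EHBP1L1, CEBPB, ECH1 and MPST had none.

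**Figure D5:**
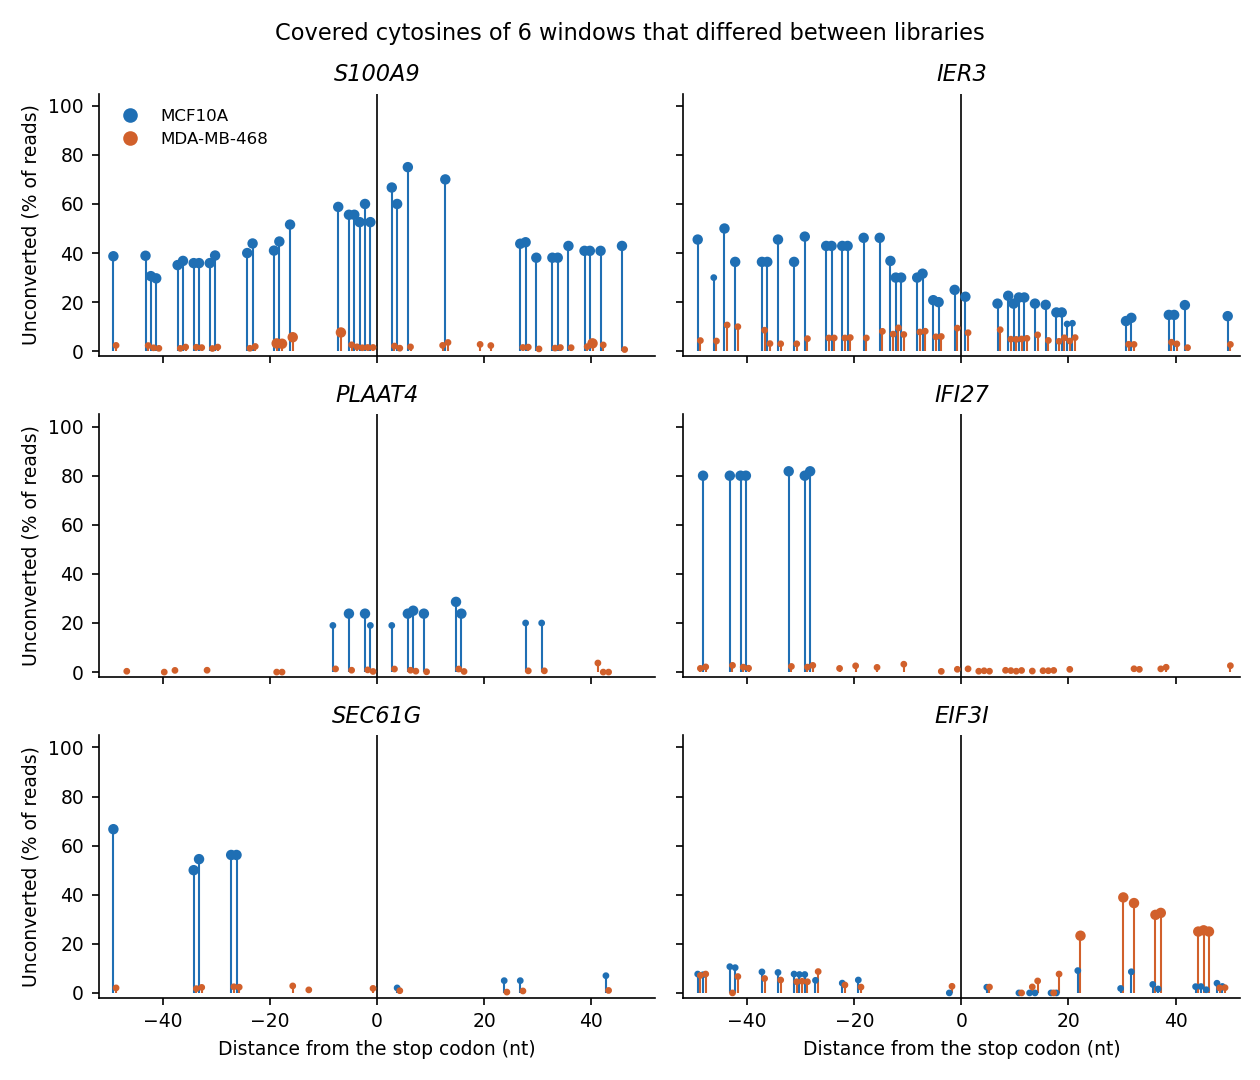
Methylation ratio (percent of reads unconverted, vertical axis) of every covered cytosine against its distance from the stop codon in nt (horizontal axis) in 6 windows with sites that differed between the libraries, larger points being called sites. In S100A9, IER3, PLAAT4 and IFI27 the MCF10A ratios are raised at nearly all covered cytosines, in SEC61G at the 5 farthest upstream, and in EIF3I the MDA-MB-468 ratios are raised from 22 to 46 nt past the stop codon.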

How the data were processed

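Per their methods, the authors trimmed the RNA BS-Seq reads with Trim Galore and used MeRanTK for alignment to hg19 and for calling. The submitters' processing notes name Trim Galore and Bismark. The authors deposited the raw counts of unconverted and converted reads per cytosine, from a coverage of 5 up, with no normalization. Counts summed to 76098976 for MCF10A, and to 90960018 for MDA-MB-468. Every nuclear site fell on a cytosine of GRCh37. Sites covered by 10 or more reads were kept where they lay in an exon of a GENCODE basic or Ensembl canonical transcript or on the mitochondrial chromosome. This left 1584007 and 1271304 sites and backgrounds of 1.99% and 1.81%. Mitochondrial genes gave no windows because the numbering of the files did not follow the reference. A site in several windows went to the nearest stop codon. The structure filter of the methods, which drops sites in folded RNA, was not applied: pairing was computed with ViennaRNA 2.7.2 (window 300 nt, span 150 nt, 70 degrees) and served as an alternative.

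Tests ran over all kept sites in Python 3.11.15 with SciPy 1.17.1. They were tested on simulated data. Alternatives to the background, test, coverage minimum, ratio, pairing, annotation and window width were tried. Sites were named by rule: the 8 highest ratios per line at a coverage of 30 or more, the 5 windows with most calls and the 5 with most counts per line, 8 isolated shared sites, up to 6 differing sites per direction at a coverage of 20 or more, and called members of fixed lists. SAT1, BAMBI, MYL12B, CASP14, S100A8 and BST2 were named after their values were seen. The members and lists were chosen with earlier results of these data known. The sequence around 1 named site is not reported here.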

Additional observations from a re-analysis of the deposited data

How the results depend on the processing

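No paired analysis was possible because each line has 1 library and the labels give no replicate numbers that pair them. Of 124 values under alternatives for 11 results, 60 stayed close to the values above, 64 moved and none reversed its direction; all 317 adjusted p-values of named sites kept their side of the threshold where the site was kept.

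Fewer sites pass a stricter filter by construction. At a coverage of at least 20 the calls were 349 in MCF10A, the shares called 1.09% and 0.912% (MCF10A, then MDA-MB-468, here and below), the upstream minus downstream differences -0.822 and -0.943 percentage points, nonconversion 1.80% and 1.47%, and the lower sites 38. At 30 or more the calls were 240 and 190, the shares 1.24% and 0.932%, the differences -1.07 and -0.903, nonconversion 1.71% and 1.41%, the sites called in both lines 60 and the lower sites 17. With a ratio of at least 0.2 also required, the shares were 0.653% and 0.439%, the difference in MDA-MB-468 -0.352, and 93 sites were called in both lines.

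With pairing over 0.9 left out, 233 sites were called in MDA-MB-468, the shares were 0.631% and 0.418%, the difference in MCF10A -0.232, nonconversion 1.88% and 1.45%, and 68 sites were called in both lines. With pairing over 0.5 left out, the calls were 153 and 89, the shares 0.524% and 0.337%, the difference in MCF10A -0.0319, nonconversion 1.84% and 1.42%, the sites called in both lines 21, the lower sites 27 and the higher sites 1.

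In windows of 25 nt the calls were 326 and 181, the share in MCF10A 0.985%, the differences -0.835 and -0.697, nonconversion 2.0% and 1.55%, the sites called in both 89, the lower sites 24 and the higher sites 0 (EIF3I lies outside them). In windows of 100 nt the calls were 961 and 727, the difference in MDA-MB-468 -0.293, nonconversion in MDA-MB-468 1.55%, the sites called in both 283 and the lower sites 152. Without sites on exons of a second gene nonconversion was 1.98% and 1.55%, and with sites on the same side of the stop codon in every transcript it was 1.54% in MDA-MB-468. Testing only sites called in at least 1 line gave 106 lower and 9 higher sites. Without the windows of S100A9 and IER3, chosen after the data were seen, the share in MCF10A was 0.722%, nonconversion 1.93% and 1.5%, and the lower sites 32.

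The median coverage near 20 leaves low ratios out of reach at most sites, and a site needed 4 unconverted reads of 10 to be called. The test treats reads as independent molecules, and neighboring cytosines share reads, so called sites of 1 window are not independent. With 1 library per line the spread between cultures is unknown.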
